A study of Saccharomyces cerevisiae with 4 samples.

Results

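The comparison described here asks where losing both Ume6 and Snf2 did something other than the sum of losing each, in budding yeast (Saccharomyces cerevisiae). For every gene the RPKM (a read density that corrects for gene length and sequencing depth) of the double deletion was set against the value that the single deletions predict on a log scale. The interaction is log2(RPKM + 1) of ume6∆snf2∆ minus that of ume6∆, minus that of snf2∆, plus that of WT, after each library was divided by its median ratio to the gene geometric mean. Of 6659 named genes, 5833 (87.6%) were members: they had a mean of at least 10 scaled RPKM over the 4 strains and were neither deleted, mating-type nor marker genes. Another 800 genes fell below that mean and 26 measured genes were left out by name. At the edge, YOR050C (9.98) and SPO11 (9.99) lay just below the mean of 10, while CYC7 (10.0046) and BAG7 (10.0094) lay just above it. The same difference was taken on the deposited splicing efficiencies of 285 introns, out of 298 listed.

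The 4 strains were ume6∆snf2∆ (ume6 replaced by KanMX and snf2 by NatMX), ume6∆ (KanMX), snf2∆ (NatMX) and WT. All were haploid, of the BY4741/2 background, and labelled his-ura-leu-. Cells were grown in glucose-containing rich medium (YPD) to mid-log phase, and 1 library per strain was sequenced after depletion of ribosomal RNA. No difference below therefore has a replicate check, no test between strains could be run, and each 95% interval covers counting error only. Reads recovered from the RPKM steps scaled the libraries to 17.4 M reads for ume6∆snf2∆, 30.2 M for ume6∆, 25.7 M for snf2∆ and 27.7 M for WT. Nothing in the kit marks strand, so reads of overlapping genes on opposite strands cannot be told apart.

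Snf2 drives Swi/Snf, a chromatin remodelling complex that uses ATP to slide and evict nucleosomes and is known for its role at strongly induced promoters. Ume6 binds a DNA element called URS1 and recruits the Rpd3-Sin3 histone deacetylase and the Isw2 remodeller, which keeps early meiotic genes silent in dividing cells. Where a repressor and a remodeller act on the same promoter, one loss can mask the other, and a double deletion then departs from the sum of both single ones.

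The deleted genes followed the labels. SNF2 had 0.143 scaled RPKM in ume6∆snf2∆, 43.1 in ume6∆, 0.108 in snf2∆ and 64.2 in WT. UME6 had 0.125, 0.0154, 19.9 and 32.7 scaled RPKM in the same order. The strains also differed in other ways that the labels do not give. Genes of a cells and of alpha cells split the libraries along SNF2: STE3, the a-factor receptor of alpha cells, had 137 scaled RPKM in ume6∆snf2∆, 4.44 in ume6∆, 168 in snf2∆ and 3.40 in WT. An additive difference of that kind cancels in the interaction, but one that depends on Ume6 would not. The left-out cell-type genes did not all cancel, with interactions of 2.59 for AGA2 and 2.31 for MFA1, but -0.15 for STE6 and -0.59 for STE3. Whether the cell-type split reached the interaction of other genes was not tested. A pair of marker genes set the double deletion alone apart. MET17, which makes homocysteine, had 2134 scaled RPKM in ume6∆snf2∆, 1.30 in ume6∆, 0.831 in snf2∆ and 0.894 in WT, and LYS2, of lysine synthesis, had 0.349, 106, 308 and 130 in the same order. An effect of these markers on other genes and the joint effect of both deletions cannot be told apart, since both are found in the same single library.

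Most genes lay near the log-additive prediction. The interaction was within 2-fold for 4893 members (83.9%), at least 2-fold above the prediction for 424 (7.27% of all members) and at least 2-fold below it for 516 (8.85%). The median interaction was -0.01, with quartiles of -0.43 and 0.40 and with 5th and 95th percentiles of -1.31 and 1.17. Scaling by median ratios holds this median near 0, so it is not a result in itself. Counting error was small beside these sizes. Recovered reads gave 5354 members an interval, the median counting error of an interaction was 0.0768 on the log2 scale, and all 839 called genes with an interval had one that excluded 0, while 595 of the 839 had an interval wholly past 2-fold. The split depended on the scaling: with RPKM as deposited the median interaction was 0.45, 1092 genes lay above the prediction and 238 below it. Of the 424 genes above the prediction on scaled values 423 were also above it on deposited values, and of the 516 below it 238 were. List counts depended on it as well: of 64 counts, each list taken higher and lower, 35 moved by more than 1.5 times on RPKM as deposited. All values that follow are on the scaled RPKM, and a gene is called higher or lower than predicted at 2-fold.

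**Figure D1:**
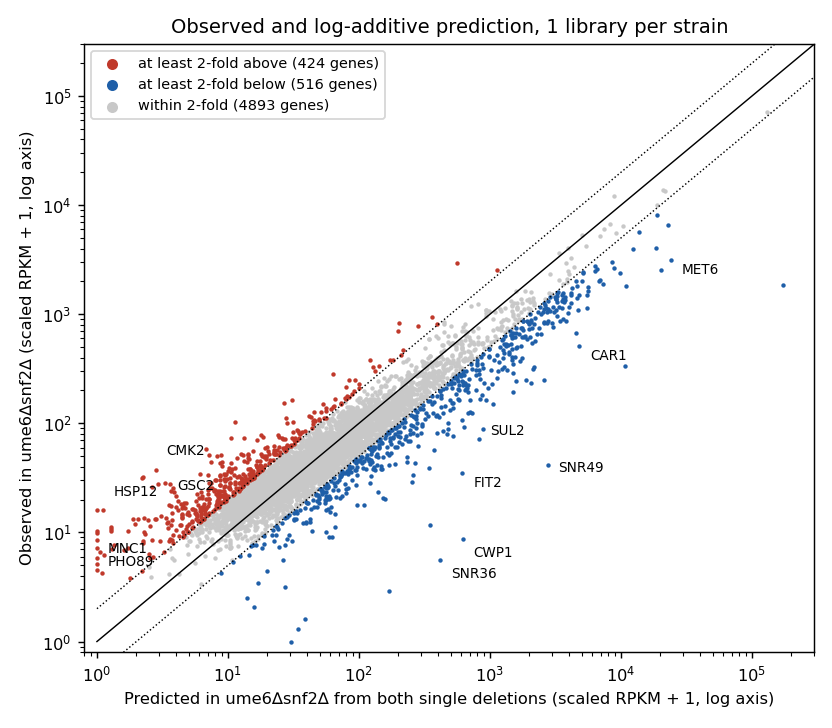
Each point is 1 of 5833 genes, with the scaled RPKM + 1 predicted for ume6∆snf2∆ from both single deletions on the horizontal log axis and the value observed on the vertical log axis; predictions below 0 RPKM are drawn at 0. The solid line marks equality and the dotted lines 2-fold. The 424 genes above the band are mostly predicted low, and the 516 below it reach the highest levels.

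The sign of the interaction followed what the single deletions did, and since WT enters both single changes and the interaction, these counts are descriptions only. Both single deletions lowered 190 genes at least 2-fold, and 160 of these (84.2%) were higher than predicted in the double deletion. In 144 of those 160 the double deletion was within 2-fold of the lower of the single deletions, so that the second loss added less than 2-fold. Both single deletions raised 79 genes at least 2-fold, and 63 of these (79.7%) were lower than predicted while 1 was higher. Of 431 genes higher in ume6∆ only, 197 (45.7%) were lower than predicted and 6 (1.39%) higher. Of 235 genes lower in ume6∆ only, 77 (32.8%) were higher than predicted and none lower. Of 113 genes higher in snf2∆ only, 32 were lower than predicted and 1 higher, and of 138 genes lower in snf2∆ only, 33 were higher than predicted and 4 lower. Among the 4619 genes that neither single deletion moved 2-fold, 140 (3.03%) were higher and 217 (4.70%) lower than predicted. For comparison, the changes against WT that define these classes took in 8.97% of members higher and 7.54% lower in ume6∆, and 3.55% higher and 5.85% lower in snf2∆. In 12 members loss of Snf2 went with changes of opposite sign, both past 2-fold, in cells without and with UME6, where the double deletion was 2-fold above ume6∆ in 3.36% of members and 2-fold below it in 6.48%. In 29 members the same held of loss of Ume6 in cells without and with SNF2, where the double deletion was above snf2∆ in 4.54% and below it in 3.43%.

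A single library often carried the interaction. Among the 424 genes higher than predicted, WT alone stood apart in 138 (32.5%), with the other 3 libraries within 2-fold of each other. The ume6∆snf2∆ library alone stood apart in 22 of them, ume6∆ in 30 and snf2∆ in 23. Among the 516 genes lower than predicted, ume6∆ alone stood apart in 97 (18.8%), ume6∆snf2∆ in 57, WT in 53 and snf2∆ in 14. Over all 5833 members, WT alone stood apart in 363, ume6∆ in 214, ume6∆snf2∆ in 158 and snf2∆ in 78. How these libraries would vary between cultures was not tested. Genes called higher often lay side by side: 104 of 371 with a position (28%) lay next to another gene called higher, against 10.8% of members. The share for genes called lower was 104 of 469 (22.2%), against 14.5% of members.

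In the 12 genes with a standard symbol that lay furthest above the prediction, WT was the highest library. All of them but TIR3 were at least 2-fold below WT in every deletion strain. MNC1 (YBR056W-A, chromosome II, 351255 to 351455) had 9.34 scaled RPKM in ume6∆snf2∆, 10.8 in ume6∆, 6.90 in snf2∆ and 259 in WT, which gave an interaction of 4.85 (4.16 to 5.55). The file also listed YBR056C-B at 7.54, 9.73, 6.48 and 240 scaled RPKM, a row that did not match R64 and whose overlap with MNC1 was not checked. WT was the high library for both, and the deletion strains lay within 2-fold of each other. Other rows with only a systematic name also lay among the largest positive interactions, with 4.40 for YMR007W, 3.84 for YPR145C-A, 3.84 for YOR385W and 3.37 for YPR160C-A. PHO89, a sodium and phosphate cotransporter, had 6.16 scaled RPKM in ume6∆snf2∆, 2.00 in ume6∆, 2.76 in snf2∆ and 38.1 in WT (4.64, interval 4.31 to 4.97). Both single deletions thus lay below the double deletion. PHO89 passed the mean of 10 only through WT, the library whose height makes its interaction positive, so it had to differ. CMK2, a calmodulin-dependent protein kinase, had 36.6, 30.8, 78.9 and 905 scaled RPKM in ume6∆snf2∆, ume6∆, snf2∆ and WT (3.75, interval 3.61 to 3.88). GSC2, an alternative catalytic subunit of glucan synthase, had 25.3, 44.3, 38.04 and 673 in the same order (3.33, interval 3.25 to 3.40). MNC1, PHO89, CMK2 and GSC2 each had a prediction under 2 RPKM, because either deletion alone had already lowered the gene many-fold. Of all 424 genes called higher, 231 had a prediction under 10 RPKM and 23 under 1 RPKM. The number called higher depended on the minimum mean more than the number called lower. With a minimum mean of 50, 136 genes were higher and 375 lower.

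**Figure D2:**
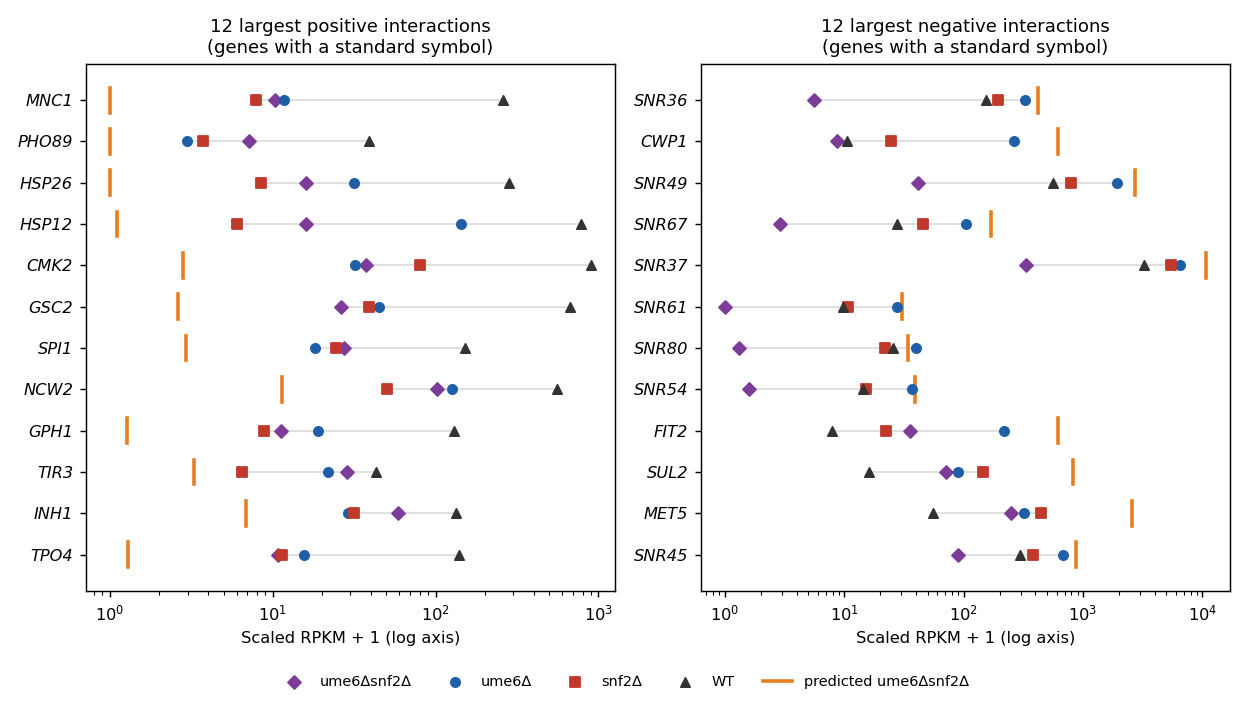
Scaled RPKM + 1 on a log axis for the 12 genes with the largest positive (left) and the 12 with the largest negative interactions (right) among genes with a standard symbol; rows with only a systematic name are not drawn. There is 1 point per strain and a bar at the value predicted for ume6∆snf2∆; predictions below 0 RPKM are drawn at 0. In the left panel WT lies to the right of all deletion strains, and in the right panel the prediction lies to the right of the observed ume6∆snf2∆ value in every gene.

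Stress response genes, many of them targets of the Msn2 and Msn4 activators, lay mostly above the prediction. Of 40 members of this list 22 were higher than predicted (55%, against 7.27% of all members) and 2 lower, with a median interaction of 1.35 against -0.01 for all members, and another 6 of its 46 measured genes were below the mean of 10. In ume6∆snf2∆ 31 of the 40 were at least 2-fold below WT, against 9.98% of all members, and 27 were so in ume6∆ and 27 in snf2∆. HSP26, a small heat shock protein, had 14.95 scaled RPKM in ume6∆snf2∆, 30.6 in ume6∆, 7.43 in snf2∆ and 280 in WT (4.07, interval 3.75 to 4.40). HSP12, a small heat shock protein bound to membranes, had 15.0, 142, 5.04 and 777 scaled RPKM in the same order (3.85, interval 3.39 to 4.32). Loss of Ume6 was thus accompanied by a lower HSP12 level in cells with SNF2 and by a higher one in cells without it. SPI1, a cell wall protein of the stationary phase, had 26.6, 17.1, 23.4 and 150 scaled RPKM (3.24), and GPH1, glycogen phosphorylase, had 10.3, 17.9, 7.81 and 130 (3.15). The exceptions were MRH1 (-1.16), a plasma membrane protein, and the cell wall gene PIR3 (-1.02). The Msn2 letters AGGGG, counted on either strand, were in the promoters of 26 of the 40 (65%), of 119 of 371 members called higher (32.1%), of 86 of 469 called lower (18.3%), of 21.4% of members and of 21.1% of all 6430 annotated promoters. The promoter of HSP12 (RefSeq R64, the assembly behind sacCer3, chrVI:107006-107305, plus strand, 250 bases before to 50 after the gene start) shows both of its matches in capitals, here on the opposite strand, at 232 and 190 bases before the start.
HSP12 promoter: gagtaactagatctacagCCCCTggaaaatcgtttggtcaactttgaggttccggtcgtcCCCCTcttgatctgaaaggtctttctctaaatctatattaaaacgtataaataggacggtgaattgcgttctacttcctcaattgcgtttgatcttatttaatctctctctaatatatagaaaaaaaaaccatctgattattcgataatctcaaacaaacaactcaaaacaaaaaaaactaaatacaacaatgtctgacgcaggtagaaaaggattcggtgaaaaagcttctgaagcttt
A match is a run of letters and not a measured binding site. The promoters of HSP26 (4.07) and SPI1 (3.24) held no match in this window.

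Calcineurin and calcium genes were the second list above the prediction. Calcineurin is the calcium-dependent phosphatase that activates the factor Crz1. Of 21 members 12 were higher than predicted (57.1%, against 7.27% of all members) and none lower (median 1.08). In ume6∆snf2∆ 12 of the 21 were at least 2-fold below WT, against 9.98% of all members, in ume6∆ 15, against 7.54%, and in snf2∆ 12, against 5.85%. DIA1, which overlaps another annotated gene, had 24.7 scaled RPKM in ume6∆snf2∆, 19.9 in ume6∆, 41.3 in snf2∆ and 230 in WT (2.75). The subunit genes of the phosphatase itself lay near the prediction, with interactions of 0.18 for CNA1, -0.32 for CMP2 and -0.33 for CNB1, while CRZ1 was at 1.08.

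Genes of phosphate, carbon and energy supply shared this direction to a smaller extent. Phosphate starvation genes had 4 of 18 members higher than predicted (22.2%, against 7.27% of all members) and none lower (median 0.59), and 10 were higher on RPKM as deposited. PHO84, the high-affinity phosphate transporter, which overlaps another annotated gene, had 42.8 scaled RPKM in ume6∆snf2∆, 137 in ume6∆, 31.5 in snf2∆ and 605 in WT (2.57). SPL2, a regulator of phosphate transport, had 3.50, 12.5, 0.798 and 37.4 in the same order (2.84). Respiration and citric acid cycle genes had 13 of 48 members higher (27.1%) and 1 lower (2.08%, against 8.85% of all members), with a median of 0.71, and 30 were higher on RPKM as deposited. CYT1, cytochrome c1, had 32.3 scaled RPKM in ume6∆snf2∆, 27.5 in ume6∆, 32.0 in snf2∆ and 97.95 in WT (1.81), so WT alone was high. RIP1, the Rieske protein of the same complex, had 46.0, 31.1, 49.5 and 110 (1.69), and the exception was NDE1, a mitochondrial NADH dehydrogenase, at 67.9, 154, 65.1 and 42.4 (-1.78). INH1, an inhibitor of the mitochondrial ATP synthase, is on none of these lists and had 57.6, 28.05, 30.6 and 133 (3.10).

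The hexose transporter, gluconeogenesis, vacuolar and cell separation lists differed in how often they left the prediction. Hexose transporter genes had 5 of 12 members higher than predicted (41.7%, against 7.27% of all members) and none lower (median 0.37). HXT7, a high-affinity glucose transporter, had 12.5 scaled RPKM in ume6∆snf2∆, 25.7 in ume6∆, 18.6 in snf2∆ and 228 in WT (2.57). HXT6 had 34.8, 69.1, 39.3 and 265 in the same order (1.75), but these transporters have near-identical coding sequences, so reads could be split between them. Gluconeogenesis, ethanol and acetate genes had 6 of 17 higher (35.3%) and 4 lower (23.5%, against 8.85% of all members). MDH2, cytosolic malate dehydrogenase, had 32.9 scaled RPKM in ume6∆snf2∆, 82.3 in ume6∆, 179 in snf2∆ and 56.9 in WT (-2.93), while SFC1, a mitochondrial succinate and fumarate carrier, had 27.3, 8.15, 2.33 and 3.10 (1.93). SFC1 passed the mean of 10 only through ume6∆snf2∆, so it had to differ. Vacuolar protease and autophagy genes had 5 of 16 higher (31.2%) and none lower (median 0.66), and 9 were higher on RPKM as deposited. PRB1, vacuolar protease B, had 153, 85.6, 142 and 459 scaled RPKM (2.52). Daughter cell separation genes had 2 of 12 higher (16.7%) and none lower (median 0.56), and 6 were higher on RPKM as deposited. Of these 12, 8 were at least 2-fold below WT in ume6∆snf2∆, against 9.98% of all members, 2 in ume6∆, against 7.54%, and 9 in snf2∆, against 5.85%. CTS1, the chitinase of cell separation, had 850 scaled RPKM in ume6∆snf2∆, 725 in ume6∆, 874 in snf2∆ and 1432 in WT (0.94), short of the 2-fold mark in the interaction and in every deletion strain against WT.

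Ribosomal protein genes lay below the prediction as a group. Of 137 members 109 were lower than predicted (79.6%, against 8.85% of all members) and none higher, with a median interaction of -1.37. On RPKM as deposited the count was 58 of 137. The prediction was high because both single deletions stood above WT, by a median of 1.16 in ume6∆ and 0.45 in snf2∆ on the log2 scale, while ume6∆snf2∆ stood 0.29 above WT. Genes with and without introns had like values, with 77 of 101 lower (median -1.33) and 32 of 36 lower (median -1.45). RPS3 had 1132 scaled RPKM in ume6∆snf2∆, 2847 in ume6∆, 1808 in snf2∆ and 941 in WT (-2.27, interval -2.31 to -2.23). RPS28B had 92.5, 456, 216 and 155 in the same order (-2.76, interval -2.97 to -2.56). In both, ume6∆ was the highest library, and in RPS28B the double deletion was the lowest. Reads of the near-identical copies of ribosomal protein genes could be split between them. The 83 ribosome biogenesis genes, which serve the same organelle, lay near the prediction, with 1 lower (1.20%), none higher and a median of -0.12.

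Other abundant transcripts shared the negative sign. Glycolysis and fermentation genes had 12 of 19 members lower than predicted (63.2%, against 8.85% of all members) and none higher (median -1.27), and 6 lower and 2 higher on RPKM as deposited. TDH2, a glyceraldehyde-3-phosphate dehydrogenase, had 1812 scaled RPKM in ume6∆snf2∆, 5397 in ume6∆, 2876 in snf2∆ and 1426 in WT (-2.59). ENO2, enolase, had 2407, 11930, 3901 and 4748 in the same order (-2.03), so ume6∆ was the high library. PDC1, pyruvate decarboxylase, had 6529, 11528, 7565 and 3799 (-1.81). Both TDH2 and ENO2 have close paralogs. Histone genes had 5 of 11 lower (45.5%) and none higher (median -0.66), with 2 lower on RPKM as deposited, led by HTA2, a histone H2A gene, with 166 scaled RPKM in ume6∆snf2∆, 463 in ume6∆, 308 in snf2∆ and 170 in WT (-2.33). Chaperones of the Hsf1 regulon had 5 of 18 lower (27.8%) and none higher (median -0.63), led by HSP10, the mitochondrial co-chaperonin, with 204, 502, 210 and 184 (-1.49). Purine synthesis genes had 9 of 21 lower (42.9%) and none higher (median -0.74), with 2 lower and 2 higher on RPKM as deposited, led by ADE12, adenylosuccinate synthase, with 76.3, 265, 281 and 142 (-2.76).

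**Figure D3:**
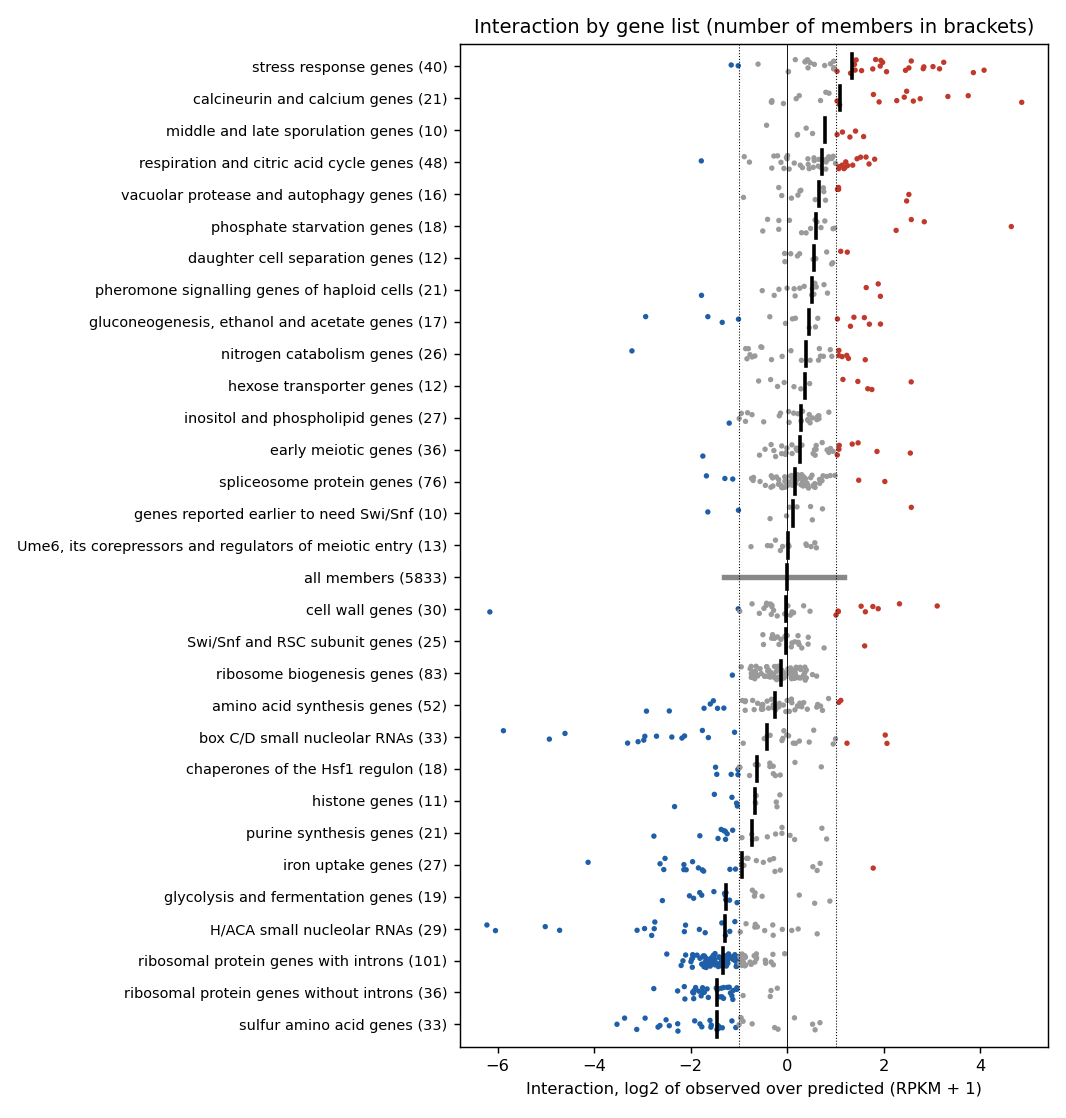
Interaction (log2) of each member, 1 point per gene, for the gene lists with at least 5 members, with the number of members in brackets; a black bar is the list median, coloured points are past the dotted lines at 2-fold, and the grey bar spans the 5th to 95th percentile of all members. Stress and calcineurin genes lie furthest to the right by their medians (1.35 and 1.08), and ribosomal protein and sulfur genes furthest to the left (-1.33, -1.45 and -1.46).

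Sulfur amino acid genes had the lowest median of the lists, -1.46, with 22 of 33 members lower than predicted (66.7%, against 8.85% of all members) and none higher. SUL2, a sulfate permease, had 70.8 scaled RPKM in ume6∆snf2∆, 89.3 in ume6∆, 146 in snf2∆ and 15.0 in WT (-3.53, interval -3.63 to -3.43). MET5, a subunit of sulfite reductase, had 249, 320, 448 and 54.7 in the same order (-3.37), and MET3, ATP sulfurylase, had 234, 365, 217 and 38.2 (-3.12). WT was the low library in all 3 genes, and in none was the double deletion the highest. MET6, methionine synthase, reached 3141 scaled RPKM in ume6∆snf2∆, 1798 in ume6∆, 2732 in snf2∆ and 202 in WT, against a prediction of 24182 (-2.94). MET17, the left-out gene of this pathway, was at 2134 scaled RPKM in the double deletion and at 0.831 to 1.30 in the other strains, and its part in the list's interaction cannot be told apart from that of the deletions. Amino acid synthesis genes outside this pathway lay nearer the prediction, with 7 of 52 lower (13.5%) and 2 higher (3.85%, against 7.27% of all members) and a median of -0.26. Their lowest included lysine genes, the pathway of the other left-out marker: LYS20, homocitrate synthase, had 124 scaled RPKM in ume6∆snf2∆, 305 in ume6∆, 289 in snf2∆ and 129 in WT (-2.44), and LYS9, saccharopine dehydrogenase, had 63.8, 171, 119 and 95.5 (-1.72). SER33, of serine synthesis, had 248, 446, 280 and 65.9 (-2.92). Without the sulfur and lysine genes, an alternative added after the data were seen, 491 of the 516 genes lower than predicted were left.

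Iron uptake genes had 13 of 27 members lower than predicted (48.1%, against 8.85% of all members) and 1 higher (median -0.95). FIT2 (YOR382W, chromosome XV, 1059531 to 1059992), a cell wall protein that retains siderophores, had 34.3 scaled RPKM in ume6∆snf2∆, 219 in ume6∆, 21.3 in snf2∆ and 6.94 in WT (-4.12, interval -4.47 to -3.78). Loss of Snf2 was thus accompanied by a higher FIT2 level in cells with UME6 and a lower one in cells without it. SIT1, a siderophore transporter, had 10.3, 92.4, 9.93 and 14.7 in the same order (-2.53), and ISU2, a scaffold for iron-sulfur clusters, had 123, 190, 210 and 54.0 (-2.56). These genes therefore reached a negative interaction from different levels, SIT1 with ume6∆ alone high and ISU2 with WT alone low. The letters TGCACCC of the iron regulator Aft1 were in the promoters of 13 of the 27 (48.1%), against 1.27% of members and 1.29% of all promoters. The FIT2 promoter (R64, chrXV:1059281-1059580, plus strand) is shown because it holds 2 of them, in capitals and in both orientations, at 249 and 131 bases before the gene start.
FIT2 promoter: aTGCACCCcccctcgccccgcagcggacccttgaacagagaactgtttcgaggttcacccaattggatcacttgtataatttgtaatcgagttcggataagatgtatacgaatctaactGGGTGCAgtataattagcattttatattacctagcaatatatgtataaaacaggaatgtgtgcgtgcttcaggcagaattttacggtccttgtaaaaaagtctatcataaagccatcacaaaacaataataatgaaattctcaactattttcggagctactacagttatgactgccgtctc

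CWP1 (YKL096W, chromosome XI, 261132 to 261851), a mannoprotein of the cell wall, had the largest negative interaction of a protein-coding gene with a standard symbol. It had 7.67 scaled RPKM in ume6∆snf2∆, 266 in ume6∆, 23.5 in snf2∆ and 9.56 in WT, against a prediction of 619, which gave -6.16 (-6.49 to -5.83). The level was thus high without Ume6 only while SNF2 was present. Cell wall genes as a list had a median of -0.02, with 9 of 30 higher than predicted (30%, against 7.27% of all members) and 2 lower (6.67%, against 8.85%). TIR3, another wall mannoprotein, had 27.4, 20.9, 5.53 and 42.3 scaled RPKM in ume6∆snf2∆, ume6∆, snf2∆ and WT (3.10), and its relative TIR4 had 16.7, 11.97, 5.03 and 21.2 (2.32). In both, snf2∆ was the low library and ume6∆snf2∆ was not.

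Small nucleolar RNAs, which guide the modification of ribosomal RNA, gave the other large negative values. H/ACA RNAs, the guides of pseudouridylation, had 17 of 29 members lower than predicted (58.6%, against 8.85% of all members) and none higher (median -1.28), and 13 of 29 lower and 1 higher on RPKM as deposited. SNR36 had 4.58 scaled RPKM in ume6∆snf2∆, 326 in ume6∆, 193 in snf2∆ and 152 in WT (-6.22, interval -6.82 to -5.62), which in reads is 16, 1534, 887 and 809. SNR49 had 40.8, 1943, 797 and 563 scaled RPKM in the same order (-6.04), and SNR37 had 334, 6431, 5413 and 3224 (-5.01, interval -5.07 to -4.95). SNR80 rested on 1, 172, 91 and 124 reads in the same order (-4.71, interval -5.50 to -3.93), and 1 read is under the floor of 3. In all 4 the double deletion was by far the lowest library and ume6∆ the highest. Box C/D RNAs, the guides of methylation, were mixed, with 14 of 33 lower (42.4%) and 3 higher (9.09%, against 7.27% of all members) and a median of -0.42, and another 14 of 47 measured were below the mean of 10. SNR67 rested on 3 reads in ume6∆snf2∆ and on 218, 92 and 64 reads in ume6∆, snf2∆ and WT (-5.88, interval -7.05 to -4.70). SNR61 had 0 reads in ume6∆snf2∆ and 62, 22 and 23 in ume6∆, snf2∆ and WT, so its interaction has no interval and depends on the pseudocount. SNR62 and SNR39B went the other way, with interactions of 2.06 and 2.03.

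Interaction moved with gene length, and these RNAs are among the shortest features. Members of at least 1600 bases had a median interaction of 0.12, with 3.28% lower than predicted. Those of 800 to 1600 bases had a median of -0.05 and 7.87% lower, those of 400 to 800 bases -0.15 and 13.8%, those of 200 to 400 bases -0.22 and 20.3%, and the 90 below 200 bases -0.58 and 40%. The order was the same among protein-coding genes, with 3.29% lower in the longest class and 33.3% in the shortest. These classes include the ribosomal protein genes, of which 109 of 137 were lower, and the order was not looked at without them. The share of genes higher than predicted had no such order, being 6.03%, 6.39%, 7.18%, 14% and 7.78% in the same classes. Genes called lower had a median length of 766 bases and genes called higher of 1125, against 1224.5 for all members. Ribosomal protein genes had a median length of 771 bases, H/ACA RNAs of 204 and sulfur genes of 1536. These medians lie in the classes of 400 to 800, 200 to 400 and 800 to 1600 bases in that order. In the class of 400 to 800 bases 13.8% were lower than predicted, against 79.6% of ribosomal protein genes. A length-dependent recovery of RNA in 1 library, most of all for small nucleolar RNAs, was not tested. Without genes shorter than 400 bases, an alternative added after the data were seen, 369 genes were higher and 410 lower than predicted.

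**Figure D4:**
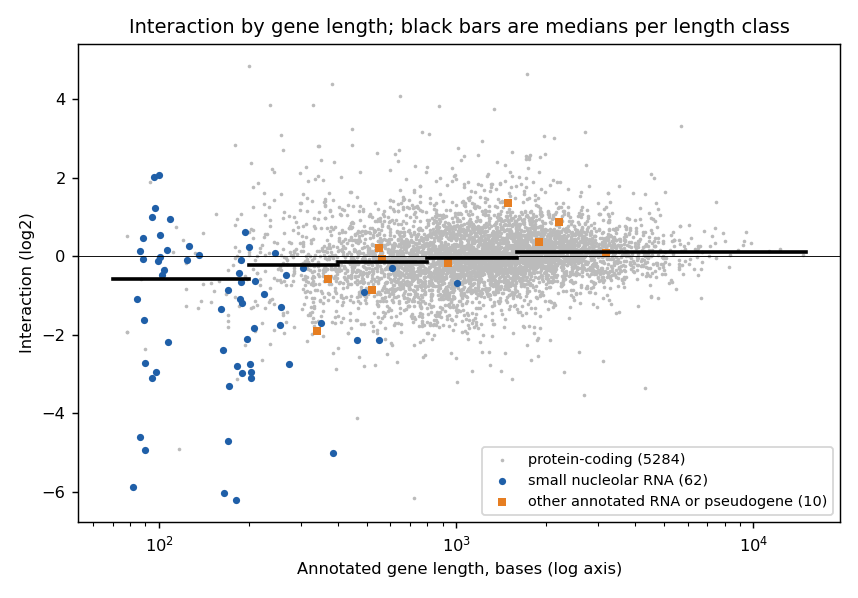
Interaction (log2) of each matched member against its annotated length on a log axis, with small nucleolar RNAs and other RNAs or pseudogenes marked; black bars are the medians of 5 length classes. The medians lie at -0.58 below 200 bases and at 0.12 from 1600 bases on.

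Early meiotic genes, the classical targets of Ume6, were the list for which the double deletion most directly asks whether Snf2 is needed once Ume6 is gone. In ume6∆snf2∆ 29 of 36 members were at least 2-fold above WT, against 8.18% of all members, in ume6∆ 26 were, against 8.97%, and in snf2∆ none was. These members passed the mean of 10 largely through the strains without UME6, so such counts describe genes that had to differ; another 5 of the 41 measured were below it. The interaction was within 2-fold for 28 of 36 (77.8%, against 83.9% of all members), 7 were higher than predicted (19.4%, against 7.27%) and 1 was lower (2.78%, against 8.85%), with a median of 0.26. HOP1, a protein of the meiotic chromosome axis, had 78.2 scaled RPKM in ume6∆snf2∆, 72.6 in ume6∆, 6.21 in snf2∆ and 6.75 in WT (0.21). IME2, a kinase that drives meiotic entry, had 29.1, 39.6, 5.21 and 7.99 in the same order (0.10). Both thus had like levels in the strains without UME6, whether or not SNF2 was there. On RPKM as deposited 16 of 35 were higher than predicted.

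The early meiotic genes that departed from the prediction did so from different starting levels. NDJ1, which tethers telomeres in meiosis, had 50.7 scaled RPKM in ume6∆snf2∆, 49.9 in ume6∆, 2.21 in snf2∆ and 17.45 in WT (2.55, interval 2.25 to 2.85). Snf2 loss alone lowered it 2.52 on the log2 scale, while the strains without UME6 differed by 0.02. REC114, needed to form meiotic DNA breaks, had 33.1, 20.8, 3.92 and 10.4 in the same order (1.86), and MEI5, a helper of the Dmc1 recombinase, had 49.6, 28.7, 0.118 and 0.815 (1.47), where snf2∆ held 2 reads. HOP2, which aids homologous pairing, had 40.2 scaled RPKM in ume6∆snf2∆, 72.6 in ume6∆, 2.45 in snf2∆ and 0.834 in WT (-1.75, interval -2.18 to -1.31). It is the neighbour of AGA2, a left-out gene of a cells. CAR1, arginase, is a metabolic gene known to be held down through URS1. It had 514 scaled RPKM in ume6∆snf2∆, 310 in ume6∆, 277 in snf2∆ and 17.1 in WT against a prediction of 4787 (-3.22, interval -3.35 to -3.09). Either deletion alone raised CAR1 to within 2-fold of the double one. The double deletion still lay 0.73 above ume6∆ and 0.89 above snf2∆ on the log2 scale.

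The core letters of URS1, GGCGGC, counted on either strand, were in the promoters of 22 of the 36 early meiotic members (61.1%), against 4.99% of members and 4.95% of all promoters. They were in 34 of 371 promoters of genes called higher (9.16%) and in 22 of 469 of genes called lower (4.69%). The promoters of NDJ1 (chrXV:117405-117704, minus strand), MEI5 (chrXVI:321581-321880, minus strand), HOP2 (chrVII:435375-435674, plus strand) and CAR1 (chrXVI:339694-339993, plus strand), all R64, are shown because they hold this core. They were picked to include interactions of both signs, so they cannot show whether the core goes with a sign. The core is in capitals, at 88, 126, 129 and 155 bases before the gene start in that order, and as its reverse complement in MEI5 and CAR1.
NDJ1 promoter: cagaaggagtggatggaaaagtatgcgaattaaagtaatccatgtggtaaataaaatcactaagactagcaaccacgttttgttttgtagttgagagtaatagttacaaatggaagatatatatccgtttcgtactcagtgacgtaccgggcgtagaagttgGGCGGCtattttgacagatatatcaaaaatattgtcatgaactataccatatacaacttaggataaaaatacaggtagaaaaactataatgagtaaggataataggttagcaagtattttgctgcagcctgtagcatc
MEI5 promoter: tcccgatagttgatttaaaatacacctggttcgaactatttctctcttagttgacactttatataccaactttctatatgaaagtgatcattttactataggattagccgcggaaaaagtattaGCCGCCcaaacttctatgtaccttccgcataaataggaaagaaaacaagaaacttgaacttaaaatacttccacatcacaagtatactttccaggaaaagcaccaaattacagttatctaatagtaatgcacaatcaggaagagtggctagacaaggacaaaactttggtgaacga
HOP2 promoter: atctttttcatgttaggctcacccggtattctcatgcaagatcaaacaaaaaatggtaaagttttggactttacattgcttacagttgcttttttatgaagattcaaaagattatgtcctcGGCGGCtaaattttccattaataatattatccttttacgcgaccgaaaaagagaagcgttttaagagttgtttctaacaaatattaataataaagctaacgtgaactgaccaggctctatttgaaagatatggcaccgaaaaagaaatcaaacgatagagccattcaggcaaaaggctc
CAR1 promoter: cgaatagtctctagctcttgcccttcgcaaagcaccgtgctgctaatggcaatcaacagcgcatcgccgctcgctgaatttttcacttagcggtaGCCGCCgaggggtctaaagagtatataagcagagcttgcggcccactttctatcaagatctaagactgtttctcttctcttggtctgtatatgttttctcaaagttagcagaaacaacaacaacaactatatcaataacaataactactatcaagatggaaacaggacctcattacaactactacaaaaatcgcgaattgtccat

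Groups further from the early meiotic genes differed in how far they left the prediction. Middle and late sporulation genes had 10 members of 35 measured, of which 5 were higher than predicted (50%, against 7.27% of all members) and none lower (median 0.78), led by SPS19, with 15.3 scaled RPKM in ume6∆snf2∆, 11.4 in ume6∆, 10.7 in snf2∆ and 25.5 in WT (1.58). The corepressors of Ume6 and the regulators of meiotic entry had none of 13 past 2-fold (median 0.02). Swi/Snf and RSC subunit genes had 1 of 25 higher (4%) and none lower (median -0.03). That gene was SWI1, a Swi/Snf subunit, with 30.4, 18.7, 25.7 and 49.9 scaled RPKM in ume6∆snf2∆, ume6∆, snf2∆ and WT (1.60). Nitrogen catabolism genes had 6 of 26 higher (23.1%) and 1, CAR1, lower (3.85%, against 8.85% of all members), with a median of 0.38, and 12 were higher on RPKM as deposited. Inositol and phospholipid genes, some of which also carry a Ume6 site, had 1 of 27 lower (3.70%) and none higher (median 0.29), and none lower and 6 higher on RPKM as deposited. That gene was CHO2, a methyltransferase of phosphatidylcholine synthesis, with 15.8, 218, 35.8 and 208 scaled RPKM in the same order (-1.20).

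Of the genes that neither single deletion moved 2-fold, the double deletion was itself past 2-fold of WT in only some: above WT in 23 of the 140 called higher and below it in 47 of the 217 called lower. The 3 of each with the largest interactions were among these, with ume6∆snf2∆ alone apart in each. SNR37 and SNR80, described above, were the lowest, followed by YOR102W with 19.2 scaled RPKM in ume6∆snf2∆, 146 in ume6∆, 93.0 in snf2∆ and 86.0 in WT (-2.98), a row that did not match R64. Among those called higher, DMO1 had 33.0 scaled RPKM in ume6∆snf2∆, 6.83 in ume6∆, 5.98 in snf2∆ and 7.87 in WT (2.46), so the double deletion was the high library. DMO1 passed the mean of 10 only through that library, so it is a gene that had to differ. YBL112C and YHR218W-A had 29.0 and 29.3 scaled RPKM in ume6∆snf2∆, against 7.54 and 7.54 in ume6∆, 10.1 and 10.2 in snf2∆ and 10.8 and 10.8 in WT (both 1.91), and whether these near-equal rows share reads was not tested. Genes lower in ume6∆ only gave SPO24, with 2921, 456, 1937 and 1581 scaled RPKM in ume6∆snf2∆, ume6∆, snf2∆ and WT (2.38), and CYC7, a form of cytochrome c, with 12.2, 2.38, 8.80 and 16.6 (2.81). In both, ume6∆ was the low library and the double deletion lay near or above WT.

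Most splicing efficiencies lay near the additive prediction. The interaction on the fraction scale had a median of -0.01 over the 285 introns, with quartiles of -0.05 and 0.01, and 222 introns were within 0.1. The 285 rows came from 269 genes, and 28 of them were isoform rows of 12 genes, each counted as 1 intron. It was at least 0.2 higher than predicted in 10 introns (3.51%) and at least 0.2 lower in 15 (5.26%). The reads behind each fraction are not known, so the reads of the host gene are given in their place. Introns of ribosomal protein genes had 3 of 104 lower and none higher (median -0.02), although most of their host genes were lower than predicted in RNA level. Introns of meiotic or sporulation genes had 4 of 9 higher and 1 lower (median 0.10).

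The largest positive intron was that of SPO22, a protein of the synaptonemal complex. Its splicing efficiency was 0.674 in ume6∆snf2∆, 0.277 in ume6∆, and 0 in both snf2∆ and WT (interaction 0.40), and its host gene had 2463, 2708, 501 and 1071 reads in ume6∆snf2∆, ume6∆, snf2∆ and WT. REC102, needed for meiotic DNA breaks, had fractions of 0.696, 0.434, 0.332 and 0.332 in the same order (0.26), and REC107, of the same process, had 0.429, 0.197, 0.05002 and 0.0368 (0.22). In these 3 meiotic introns the double deletion had the highest fraction. The host level of REC107 was nearly level, at 19.6, 17.0, 18.6 and 24.9 scaled RPKM. DMC1, the meiotic recombinase, had fractions of 0.736, 0.685, 0 and 0.312 (0.36), so its interaction came from snf2∆ and WT, whose host held 230 and 198 reads. MND1, the partner of Hop2, went the other way with 0.0646, 0.0955, 0.310 and 0 (-0.34), where snf2∆ and WT held 96 and 121 host reads. The product of MER1 is known to promote splicing of meiotic introns such as those of REC107 and SPO22. MER1 had 14.8 scaled RPKM in ume6∆snf2∆, 17.8 in ume6∆, 8.62 in snf2∆ and 28.1 in WT (1.34). Its bearing on these fractions was not tested. REC107 and MER1 were chosen here after their values had been seen.

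Outside meiosis, MRK1, a kinase of the glycogen synthase kinase family, had fractions of 0.816 in ume6∆snf2∆, 0.517 in ume6∆, 0.594 in snf2∆ and 0.691 in WT (0.40). FES1, an exchange factor for Hsp70, had 0.513, 0.350, 0.276 and 0.478 in the same order (0.36), and MCR1, a mitochondrial reductase, had 0.456, 0.117, 0.272 and 0.181 (0.25). In MRK1 and FES1 each single deletion was below WT and the double deletion above it. The most negative intron was in RPL22B, a ribosomal protein gene, with 0.593 in ume6∆snf2∆, 0.666 in ume6∆, 0.604 in snf2∆ and 0.165 in WT (-0.51), where host reads were 1204, 2362, 1235 and 854. WT alone was low there, and the prediction of 1.105 lies above the highest possible fraction. RPL18B had 0.561, 0.694, 0.671 and 0.470 (-0.33). In ECM9 the fraction was 0 in ume6∆snf2∆ with 78 host reads, and 0.484, 0.432 and 0.438 in ume6∆, snf2∆ and WT (-0.48). RRT8 also had 0 in ume6∆snf2∆, with 0.360, 0.154 and 0.0772 in the other strains in that order (-0.44), and DTD1, a deacylase of charged transfer RNA, had 0.164, 0.468, 0.599 and 0.473 (-0.43). In these last 3 introns ume6∆snf2∆ was the lowest library. Among all 15 introns called lower, 3 were in ribosomal protein genes.

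**Figure D5:**
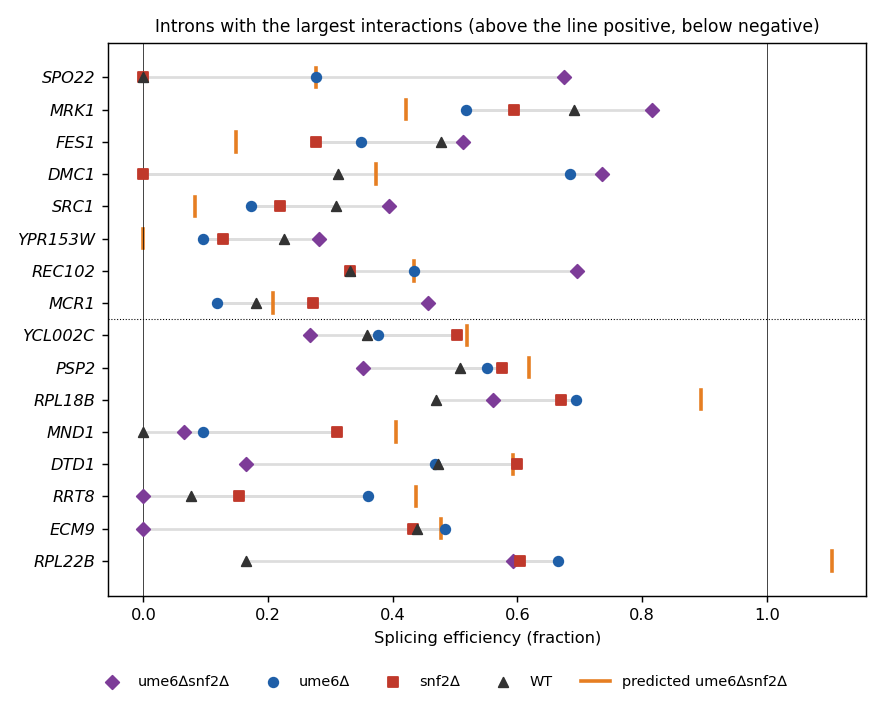
Splicing efficiency (fraction) of the 8 introns with the largest positive interactions, above the dotted line, and the 8 with the largest negative ones, below it, with 1 point per strain and a bar at the value predicted for ume6∆snf2∆. The point of ume6∆snf2∆ lies right of the bar in the upper 8 introns and left of it in the lower 8.

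The sites that the spliceosome reads were looked up for the 230 members with 1 annotated intron. The consensus 5′ splice site GTATGT began 5 of 7 introns called higher (71.4%) and 10 of 14 called lower (71.4%), against 163 of 209 within 0.2 (78%). The branch site letters TACTAAC were in 4 of the 7 called higher (57.1%) and 7 of the 14 called lower (50%), against 181 of the 209 within 0.2 (86.6%). The median intron length was 97 bases in those called higher and 96.5 in those called lower, against 168 in those within. These differences rest on 7 and 14 introns and were not tested. The group within 0.2 also held nearly all introns of ribosomal protein genes, of which 3 of 104 were called lower and none higher. Most of these introns were longer than 168 bases and held TACTAAC. Length and branch site were not compared without them, so the gaps cannot be told apart from this mix of host genes. For 5 of these introns the sequences are given: the first 24 intron bases with the 5′ splice site in capitals, and the branch site in capitals within 15 bases where the exact letters are present. SPO22 (chrIX:225810-225899, minus strand) lacks both consensus forms, REC107 (chrX:469184-469263, minus strand) and RPL22B (chrVI:64600-64920, minus strand) differ at the 5′ splice site, and DMC1 (chrV:548553-548644, plus strand) and ECM9 (chrXI:447707-447810, minus strand) match both, all in R64.
SPO22 intron start: GTATATaacaaaatgcaaaacata
REC107 intron start: GTTCGTaccaacacagtgcatacc
REC107 branch region: cattTACTAACaact
DMC1 intron start: GTATGTtataataacatttttaaa
DMC1 branch region: ctttTACTAACtaat
RPL22B intron start: GTACGTtaattttcgttcctatgt
RPL22B branch region: ggatTACTAACataa
ECM9 intron start: GTATGTctcaacggtaaaatacaa
ECM9 branch region: cggcTACTAACaatt

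The calls depended on the scale of additivity. When the single changes were added as RPKM instead of as logs, 404 of the 424 genes called higher remained higher and 370 of the 516 called lower remained lower. Many genes were called higher on that scale only, as 784 were higher in all, while 399 were lower. Of the 79 genes that both single deletions raised, 28 were lower than predicted on that scale, against 63 on the log scale. For the 190 genes that both single deletions lowered, the RPKM prediction was at or below 0 in every case, so that any level was above it.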

How the data were processed

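RNA levels and splicing efficiencies of 4 yeast strains with 1 library each were analysed. Gene levels were deposited by the authors as RPKM, and splicing efficiencies were deposited as a fraction per intron, with no formula stated; the snf2∆ column of fractions holds some cells without a number. Per the labels' protocols, RNA was extracted with hot phenol, treated with DNase and made into TruSeq V2 libraries. Per the submitters' processing notes, CASAVA, STAR 2.4.0 and sacCer3 were used; the counter and the annotation behind RPKM are not given in the sources used. Lines named by a single letter (3) were left out, and 5986 of 6659 genes matched RefSeq R64.

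Each RPKM column was divided by its median ratio to the gene geometric mean (factors of 1.101, 0.857, 0.984 and 1.06 for ume6∆snf2∆, ume6∆, snf2∆ and WT). Interactions used log2(RPKM + 1), so the changes of low genes are understated, with a minimum mean of 10 and a call at 2-fold; on fractions the call was 0.2. RPKM times gene length gave whole reads for 99.4% to 99.5% of values above 0 (tolerance 0.05 reads), and 95% intervals are normal intervals from those reads. They cover counting error only. A floor of 3 reads equals 0.172, 0.0995, 0.117 and 0.108 RPKM as deposited for a gene of 1 kb in the same order of strains. On simulated counts of 5924 genes, all 91 genes set 3-fold higher and 83 of 86 set 3-fold lower were called, and 0.175% of 5141 unchanged genes were. The simulated counts held counting noise only and no variation between cultures or libraries. The 0.175% is therefore not a rate of false calls in the data.

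The members, lists and alternatives were chosen with earlier results of these data known. Genes named are the 12 largest interactions each way among genes with a standard symbol, 2 to 4 members per list, 3 per pattern of single changes and 8 introns each way; CNA1, CMP2, CNB1, CRZ1, PIR3, HOP1, IME2, MER1, SNR62, SNR39B, REC107, YMR007W, YPR145C-A, YOR385W, YPR160C-A and YLR264C-A were named after their values were seen. The left-out mating-type genes are those of the a and alpha loci, the pheromones, their receptors and genes specific to one cell type. Promoters run from 250 bases before to 50 after the annotated start, read from the R64 genome. Alternatives were no scaling, another set of scaling genes, other pseudocounts and filters, additivity of RPKM and recovered reads. Python 3.11.15, numpy 2.4.6, pandas 2.3.3 and matplotlib 3.10.9 were used.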

Additional observations from a re-analysis of the deposited data

Results flagged for a closer look

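For 12 members the change with loss of Snf2 had opposite signs, both past 2-fold, in cells with and without UME6, and for 29 the change with loss of Ume6 had opposite signs in cells with and without SNF2. With 1 library per strain these differences were not tested. Among the genes named, opposite Snf2 changes gave interactions of 3.10 for INH1, 4.64 for PHO89, -4.12 for FIT2, -2.93 for MDH2 and -2.59 for TDH2. YLR154W-E, a row that did not match R64, had 1866 scaled RPKM in ume6∆snf2∆, 35344 in ume6∆, 461 in snf2∆ and 93.3 in WT (-6.53). Without a matched length this row has no counting interval. Its overlap with other genes, those of ribosomal RNA included, was not checked. Opposite Ume6 changes gave 3.16 for NCW2, 3.85 for HSP12, 2.84 for SPL2, -3.53 for SUL2, -2.63 for ATX1, a copper chaperone, -2.76 for RPS28B and -2.20 for RPS30B. Among small nucleolar RNAs they gave -6.22 for SNR36, -6.04 for SNR49, -5.88 for SNR67, -3.31 for SNR45, -4.60 for SNR54, which overlaps another gene, and -4.93 for SNR61. SNR54 rests on 1 read in ume6∆snf2∆, under the floor of 3, and has an interval of -5.89 to -3.31. The value of SNR61 rests on 0 reads in ume6∆snf2∆ and depends on the pseudocount. YLR264C-A, a short gene with only a systematic name, had 10.7 scaled RPKM in ume6∆snf2∆, 274 in ume6∆, 173 in snf2∆ and 136 in WT (-4.90), also with opposite Ume6 changes. Both changes turned in CWP1 (-6.16), LYS20 (-2.44) and YPR145C-A (3.84).

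MET17, one of the genes left out as markers, had 2134 scaled RPKM in ume6∆snf2∆, and at most 1.30 in the other strains.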

How the results depend on the processing

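The 424 genes higher and 516 lower than predicted, and the 160 and 63 of them that both single deletions had lowered or raised, stayed within 1.5 times of these counts with another set of scaling genes, pseudocounts of 0.1 and 5, a minimum mean of 1, recovered reads, and without overlapping genes, neighbours of left-out genes, or, added after the data were seen, genes under 400 bases, sulfur and lysine genes, or genes predicted under 1 RPKM. On RPKM as deposited the counts were 1092, 238, 244 and 35. With a minimum mean of 50, 136 genes were higher and 64 of those were lowered by both, and with no filter 641 were higher. With additivity of RPKM 784 were higher and 28 of the genes raised by both were lower. With the interval required to lie wholly past 2-fold, 239 were higher. Introns gave 3 higher and 4 lower with a host mean of at least 50, and 19 and 44 with a call at 0.1. Of 64 list counts, 35 moved by more than 1.5 times on RPKM as deposited, 21 with additivity of RPKM and 6 with a pseudocount of 5. ARG5,6, of arginine synthesis, had 1.11 on the log scale and -0.21 on the RPKM scale; the cause was not tested. Of 123 named genes called, 110 were still past 2-fold in the same direction on RPKM as deposited, and 108 with additivity of RPKM. No paired analysis was possible because each strain has 1 library. For the same reason no library could be left out, since every interaction needs all 4. The ume6∆snf2∆ library was the shallowest, and depth limits the short RNAs most.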
